A study of Mus musculus with 9 samples.

Results

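This comparison set mouse oral tumors whose single remaining p53 copy encodes the R172H missense protein (p53R172H/-, 3 tumors) against oral tumors that had lost p53 altogether (p53-/-, 3 tumors). The members were chosen by the genotype in each tumor's title, which gave 6 of the 9 arrays of the series. The other 3 arrays hold p53R172H/+ tumors, whose label gives a wild-type copy beside the mutant one. Whether the tumors kept that copy was not tested. They entered the fit to share its estimate of the spread and are given beside a few genes. All mice were 1 year old, and by the series' title the tumors of all groups were also induced through activated Ras. The labels write the mice as K-p53-/-, K-p53R172H/- and K-p53R172H/+, and the meaning of the prefix, the Ras allele and the promoter behind any recombinase are not spelled out there. Whether each tumor of a genotype is from its own mouse is not stated, so the p-values cover only the scatter among these arrays.

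p53 is a transcription factor that halts the cell cycle or triggers cell death when DNA is damaged, through targets such as the CDK inhibitor Cdkn1a and its own antagonist Mdm2. The R172H change lies in its DNA-binding domain and is the mouse counterpart of a frequent hot-spot mutation of human cancers. A tumor with this allele and no wild-type copy can still make the mutant protein, whereas a p53-/- tumor makes none, so the comparison asks what the presence of the mutant protein adds to the loss of p53. In squamous tumors of the mouth, Ras drives growth through the ERK kinase cascade, and the tumor tissue is a mixture of keratinocytes, fibroblasts, vessels, immune cells and neighbouring muscle.

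Each tumor was hybridised to 1 Affymetrix array, which gave 1 signal intensity per probe set. Values are written in signal units, the tumors of a genotype are always listed as tumors 1, 2 and 3, and the 3 values of the p53-/- tumors come before the word "against" and those of the p53R172H/- tumors after it. Differences are p53R172H/- minus p53-/- on the log2 scale with the standard error (SE) of the linear model, where 1 unit is a 2-fold difference. Of 18193 genes with a named probe set, 12167 passed a filter on low mean signal and were tested. The 9 arrays were alike in brightness, with median signals of 109 to 123. The keratins of basal stratified epithelium were among the brightest genes in both groups, with Krt14 at 22679.9, 20184 and 19908 against 22692, 20662 and 21205 and Krt5 at 11748, 10434 and 11964 against 13213, 11011 and 11486, and the oral keratin Krt13 was at 14599, 18144 and 9692 against 11814, 16713 and 14027, so the epithelial label was borne out by its markers. The tumors were less alike in the genes of the surrounding tissue. The mean log2 signal of 32 skeletal muscle genes was 7.84 to 8.16 in the p53-/- tumors, but 7.15, 9.80 and 9.02 in p53R172H/- tumors 1, 2 and 3. Hair keratin genes differed in the same tumors, at 8.18 to 9.25 in the p53-/- tumors and at 7.44, 10.30 and 9.44 in the p53R172H/- tumors. Results are therefore given below tumor by tumor.

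No gene passed an adjusted p of 0.05 with limma and Benjamini-Hochberg adjustment over the 12167 genes, which is 0% of them, and the smallest adjusted p was 0.202. At an unadjusted p of 0.05, 783 genes (6.44%) were higher and 1114 (9.16%) lower in the p53R172H/- tumors. As a measure of consistency from tumor to tumor, a gene was counted as not overlapping when all 3 p53R172H/- tumors lay above, or all 3 below, all 3 p53-/- tumors. This held for 1108 genes on the higher side (9.11%) and 1681 on the lower side (13.8%), and these 2 shares are the background for every count of gene lists below. With a difference of at least 1.5-fold as well, 112 genes (0.921%) were higher and 153 (1.26%) lower, and at 2-fold 16 (0.132%) and 17 (0.14%). The unadjusted counts were 486 higher and 690 lower without p53-/- tumor 2, and 715 lower without p53R172H/- tumor 1. Leaving out a tumor loosens the rule of no overlap, so its counts can only stay or grow. List counts of 0 or 1 that became at most 2 are not repeated at each list. They were 1811 and 2536 without p53-/- tumor 1, 1686 and 2591 without p53-/- tumor 3, and on the higher side 1937 and 1678 without p53R172H/- tumor 1 or 2. With 1 tumor left out the background was 11.5% to 15.9% on the higher and 17.9% to 21.3% on the lower side, which is what the leave-one-out counts of lists below compare with. The median difference over all genes was -0.03. Single genes are given below as values and counts, and none of them is called changed.

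**Figure D1:**
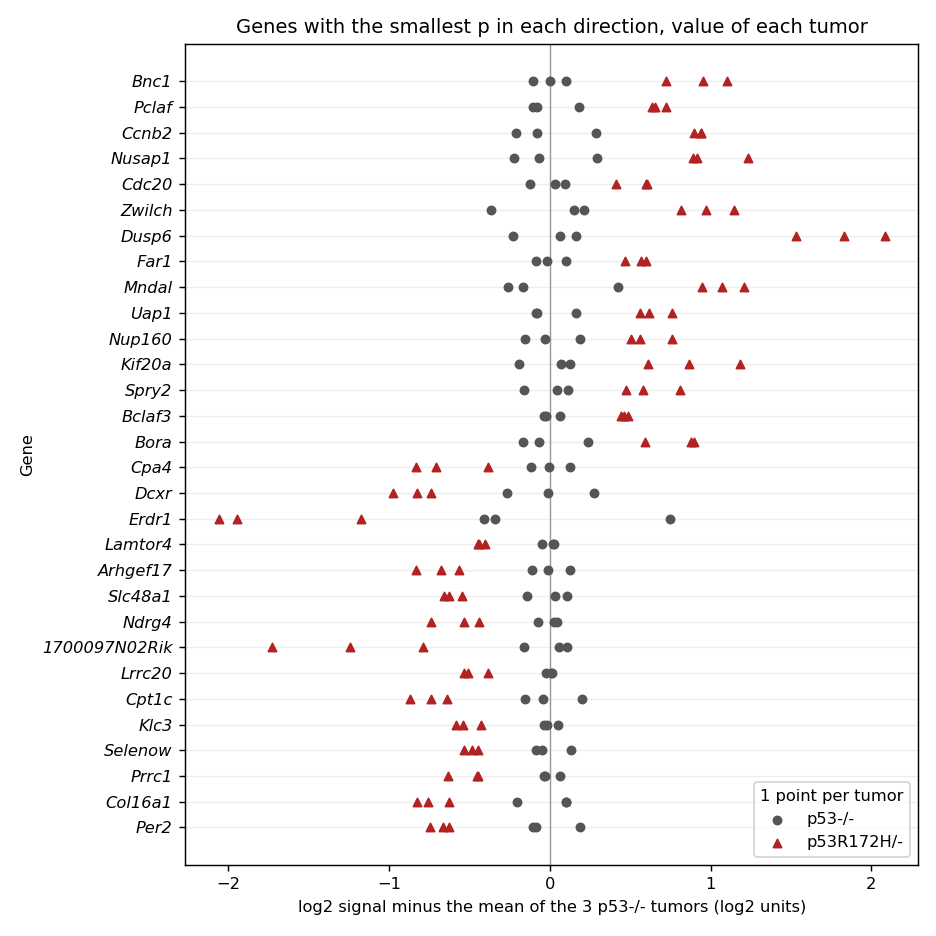
Log2 signal of each tumor minus the mean of the 3 p53-/- tumors (x axis, log2 units) for the 15 genes with the smallest p in each direction (y axis); circles are p53-/- tumors and triangles p53R172H/- tumors. The genes were picked by p, which weighs the gap against the scatter, so both the gap and the tightness shown are descriptions. Ccnb2 was at 736, 738 and 713 signal units in the p53R172H/- tumors. Erdr1 was spread over 3638, 8094 and 3814 in the p53-/- tumors.

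Genes of the machinery of mitosis had mostly higher values in the p53R172H/- tumors. Cells enter mitosis when cyclin B bound to Cdk1 becomes active, chromosomes are attached to the spindle at kinetochores under the watch of a checkpoint, and the anaphase-promoting complex (APC/C), a ubiquitin ligase, then destroys cyclins and releases the chromosomes. Of 98 tested genes in 4 lists of this machinery, 80 had a higher mean in the p53R172H/- tumors. In 52 of the 98 genes (53.1%) all 3 p53R172H/- tumors lay above all 3 p53-/- tumors, against 9.11% of all genes, and in 4 they lay below. Genes that rise and fall together repeat 1 ranking of the 6 tumors. Members of this or any other list are therefore not separate observations of the genotypes, and such shares are descriptions. At an unadjusted p of 0.05, 59 were higher and 2 lower, and 0 passed after adjustment over all genes. The median difference was 0.41, and the 3 p53R172H/- tumors had medians of 0.52, 0.30 and 0.38 against the p53-/- mean. Leaving out any 1 of the 6 tumors kept the median difference between 0.34 and 0.49. The p53-/- tumors also differed among themselves. Against the mean of the other 2, p53-/- tumors 1, 2 and 3 had medians of 0.265, -0.148 and -0.12. The list's mean log2 signal was 8.48 in p53-/- tumor 1 and 8.59 in p53R172H/- tumor 2. Whether the tumors held more cells in mitosis or more of these RNAs per cell cannot be told apart in bulk tissue, here or in the lists that follow.

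These genes are often switched together through their promoters, where a CCAAT box (bound by the factor NF-Y) lies near a CHR element, TTTGAA, read by MuvB complexes that repress the genes in resting cells and activate them late in the cycle. In the RefSeq promoters (GRCm38.p6, 250 bases before to 50 after each start), 83 of the 98 genes matched with 91 promoters. CCAAT, searched on both strands, was in 72.5% of them against 37.4% of all 32851 promoters, and TTTGAA, also on both strands, in 52.7% against 17.9%. Both were present in 46.2% against 6.95%, and no motif overlaps another in the sequences printed here. A match is a string of letters and not a shown binding site. Neither motif was in the promoters of Nusap1 and Birc5, which are described below and also separated the genotypes. The promoter of Plk1, also described below, held both motifs, and Plk1 overlapped between the genotypes. Printed here are the promoters of 3 genes that hold both motifs and did not overlap. They are given 5′ to 3′ on the gene's strand, with these motifs in capitals and the start site at base 251. The 3 genes are the mitotic cyclin Ccnb2 (chr9:70421505-70421804, minus strand), the APC/C activator Cdc20 (chr4:118437294-118437593, minus strand) and the spindle kinase Aurka (chr2:172370521-172370820, minus strand).
Ccnb2: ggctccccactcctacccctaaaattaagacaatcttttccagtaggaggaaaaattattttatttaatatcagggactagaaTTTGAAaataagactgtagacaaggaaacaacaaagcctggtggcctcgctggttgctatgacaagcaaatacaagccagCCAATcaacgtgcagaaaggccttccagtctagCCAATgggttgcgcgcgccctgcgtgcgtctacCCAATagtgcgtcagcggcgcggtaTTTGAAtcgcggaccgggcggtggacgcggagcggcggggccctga
Cdc20: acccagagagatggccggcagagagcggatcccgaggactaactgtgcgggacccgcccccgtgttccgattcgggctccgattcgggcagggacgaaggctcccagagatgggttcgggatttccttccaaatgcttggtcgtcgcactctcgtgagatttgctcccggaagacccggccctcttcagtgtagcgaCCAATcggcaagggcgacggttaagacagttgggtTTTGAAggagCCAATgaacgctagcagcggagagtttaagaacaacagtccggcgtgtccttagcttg
Aurka: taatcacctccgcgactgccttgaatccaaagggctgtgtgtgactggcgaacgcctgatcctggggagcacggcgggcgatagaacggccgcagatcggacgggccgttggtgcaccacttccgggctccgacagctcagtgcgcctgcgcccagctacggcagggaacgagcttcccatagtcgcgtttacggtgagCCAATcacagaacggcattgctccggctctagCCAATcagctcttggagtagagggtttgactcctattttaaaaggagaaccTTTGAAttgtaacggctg

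Among cyclins and kinases, Ccnb2, the cyclin whose promoter opens the set above, was at 469, 364 and 332 against 736, 738 and 713, a difference of 0.93 ± 0.15. Its 3 p53R172H/- values lay close together and 1.9-fold above the p53-/- tumors on average. Ccna2, the cyclin of S phase and early mitosis, was at 623, 432 and 489 against 1005, 784 and 808 (0.76 ± 0.16), and Cdk1, the kinase both cyclins activate, was at 1089, 744 and 707 against 1375, 1065 and 1178 (0.53 ± 0.17). Ccna2 did not overlap between genotypes, whereas p53-/- tumor 1 reached into the p53R172H/- range for Cdk1. Aurka, which matures spindle poles, was at 253, 156 and 159 against 392, 271 and 320.3 (0.81 ± 0.21), and its activating cofactor Bora was at 108, 81.6 and 87.2 against 168, 138 and 170.4 (0.79 ± 0.15). The polo kinase Plk1, which Aurka and Bora switch on, was at 353, 418 and 271 against 522, 392 and 447 (0.40 ± 0.16) and overlapped. In this list 9 of 23 genes lay above without overlap and 2 below. Without p53R172H/- tumor 2, which had the lowest median of the list at 0.20, the first count was 15. Mybl2, a transcription factor of the same promoters, went the other way at 167, 203 and 169 against 139, 100.5 and 118 (-0.60 ± 0.18), and the factor Foxm1, also of late cell cycle genes, was nearly level at 195, 165 and 163 against 176, 151 and 169.7 (-0.07 ± 0.12). Another probe set of the gene had a difference of the opposite sign for Aurka.

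Among genes of the APC/C and its substrates' ubiquitin chains, Cdc20, the activator that the checkpoint restrains, was at 1219, 1168 and 1050.0 against 1741, 1521 and 1735 (0.54 ± 0.09). The core subunit Cdc27 was tight within each genotype at 346, 344 and 346 against 477, 470.0 and 435 (0.41 ± 0.08). Ube2c, the enzyme that starts the ubiquitin chain, was at 849, 619 and 569 against 1118, 1111 and 913 (0.64 ± 0.17), and Ube2s, which extends it, was at 1747, 1153 and 1331 against 2419, 1992 and 1902 (0.59 ± 0.16). All 4 genes were above every p53-/- tumor in each p53R172H/- tumor. In the list, 7 of 18 genes did so and 0 did the reverse. Without p53-/- tumor 1, the p53-/- tumor with the highest level of these genes, the count was 12. Probe sets of the same gene disagreed in sign for Cdc20 and Ube2s.

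Kinetochore and checkpoint genes had a median difference of 0.43, with 16 of 27 genes higher without overlap and 1 lower. Zwilch, part of the complex that brings dynein to kinetochores, was at 113, 75.6 and 108 against 215, 171 and 191 (0.98 ± 0.17). Birc5 (survivin), which places the Aurora B kinase at centromeres, was at 624, 467 and 469 against 906, 745 and 816 (0.67 ± 0.14), and Spc24, which helps hold microtubules, at 175, 189 and 184 against 268, 251 and 234 (0.46 ± 0.10). Each of these genes had its lowest p53R172H/- tumor above its highest p53-/- tumor. The kinetochore motor Cenpe was at 203, 146 and 143 against 304, 249 and 243 (0.70 ± 0.16), and Sgo1, which guards centromeric cohesion, at 186, 152 and 147 against 316, 221 and 241 (0.67 ± 0.16). Of the kinase list, the checkpoint kinases Bub1, at 191, 153 and 162 against 317, 214 and 279 (0.66 ± 0.17), and Bub1b, at 318, 225 and 246 against 435, 382 and 352 (0.58 ± 0.15), belong here by function. p53R172H/- tumor 1 had the highest value in Zwilch, Birc5, Spc24, Cenpe, Sgo1, Bub1 and Bub1b. The gene of the list that was lower without overlap was Cenpp, a centromere protein, at 172.3, 165 and 190.1 against 139, 138 and 142 (-0.33 ± 0.11). The count of genes higher without overlap was 7 of 13 with a stricter filter and 10 of 22 with the mean over a gene's probe sets. For Cenpp another probe set of the gene pointed the other way.

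Spindle and cytokinesis genes had the largest median of the mitotic lists, 0.54, with 20 of 30 genes higher without overlap and 1 lower. The medians of the 3 p53R172H/- tumors against the p53-/- mean were 0.62, 0.44 and 0.49. Nusap1, which bundles spindle microtubules, was at 254, 178 and 198 against 391, 487 and 384 (1.01 ± 0.16). Kif20a, a kinesin needed for cytokinesis, was at 115, 91.9 and 110.2 against 239, 160.4 and 192 (0.89 ± 0.16), and Ect2, which activates RhoA for the cleavage furrow, at 275, 192 and 213 against 341, 397 and 396 (0.75 ± 0.15). The folds of Nusap1 and Kif20a were 2.02 and 1.85, and none of the 3 genes overlapped. Cep55, which directs the final cut between daughter cells, was at 228, 152 and 162 against 381, 265 and 350.5 (0.89 ± 0.18), and the furrow scaffold Anln at 773, 597 and 552 against 987, 1001 and 961 (0.63 ± 0.13). The condensin subunit Smc2, which compacts chromosomes, was at 515, 442 and 490.3 against 763, 619 and 776 (0.57 ± 0.12). Leaving out 1 of the 6 tumors kept the count of higher genes at 20 or 21, and the count of lower genes was 2 without p53-/- tumor 1 or p53R172H/- tumor 3. The kinesin Kifc1, at 198, 192 and 180.3 against 167, 152 and 166 (-0.24 ± 0.12), was the gene lower without overlap. The sign differed on another probe set of the gene for Nusap1 and Smc2.

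**Figure D2:**
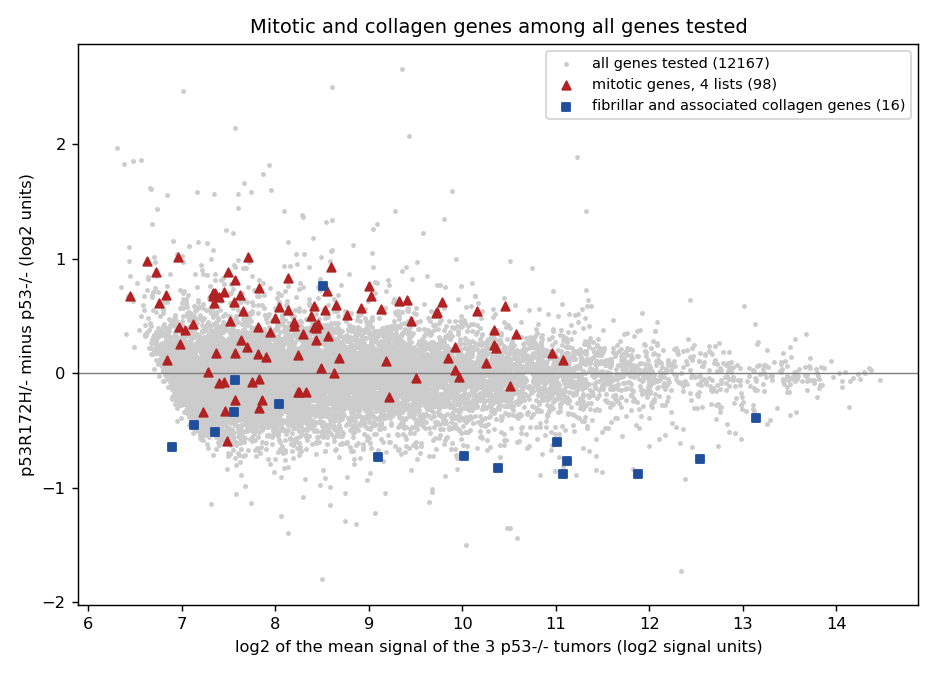
Difference between p53R172H/- and p53-/- tumors (y axis, log2 units) against the log2 mean signal of the p53-/- tumors (x axis) for all 12167 genes tested (grey), 98 mitotic genes (triangles) and 16 fibrillar and associated collagen genes (squares). Of the mitotic genes 80 lie above 0 and of the collagens 15 lie below 0, and both groups span dim and bright genes.

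The proliferation marker Mki67, a coat protein of mitotic chromosomes, was at 1055, 674 and 794 against 1180.2, 1195 and 1205 (0.53 ± 0.15), with the 3 p53R172H/- tumors nearly equal and above all p53-/- tumors. Genes of DNA replication, the preceding phase, were less uniform. Of 41 tested, 6 were higher without overlap and 2 lower, which is 14.6% and 4.88% beside 9.11% and 13.8% of all genes, and the median was 0.10. By tumor the medians were 0.27, -0.04 and 0.17, so p53R172H/- tumor 2 did not share the shift, and without it 20 genes were higher without overlap with a median of 0.20. Without p53-/- tumor 1 the count was 13 and the median 0.16, without p53-/- tumor 3 the count was 10, and without p53R172H/- tumor 1 the median was 0.05. Pclaf, a partner of the sliding clamp PCNA, stood out at 1272, 1045 and 1065 against 1771, 1744 and 1849.7 (0.67 ± 0.10). The origin subunit Orc2 was at 248, 221 and 215 against 322, 269.6 and 288 (0.36 ± 0.11) and the primase subunit Prim1 at 511, 463 and 500.2 against 694, 529.7 and 598 (0.30 ± 0.11), while Pold1, the catalytic subunit of polymerase delta, was lower at 468, 380.0 and 431 against 355, 323 and 315 (-0.36 ± 0.11). Top1, the topoisomerase that relaxes supercoiled DNA ahead of both replication and transcription, was at 839, 854 and 914 against 1129, 1231 and 1213 (0.46 ± 0.09). Of 27 DNA repair genes 2 were higher and 2 lower without overlap, with a median of -0.02. Mgmt, which removes alkyl groups from guanine, was lower at 247, 434 and 260.0 against 135, 139 and 157 (-1.08 ± 0.21). Another probe set of the gene had a difference of the opposite sign for Top1.

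The ERK cascade downstream of Ras is held in check by genes it induces itself, chiefly phosphatases and Sprouty proteins. Dusp6, the phosphatase that inactivates ERK, had one of the largest consistent differences, at 206, 253 and 272 against 1027, 701 and 861 (1.82 ± 0.32, 3.52-fold). Spry2, a Sprouty inhibitor of receptor signalling, was at 176, 213 and 204 against 273, 294 and 345 (0.62 ± 0.12). Dusp5, a nuclear ERK phosphatase, was at 424, 424 and 443 against 549, 491 and 569 (0.32 ± 0.13), and Spred1, which inhibits Ras activation, at 409.6, 425 and 404 against 484, 506 and 439 (0.20 ± 0.09). In these 4 negative regulators no p53R172H/- tumor fell within the p53-/- range. Not all members shared this, since Spry1 was at 354, 297 and 365 against 274, 377 and 381 (0.01 ± 0.15) and Etv4, an ERK-responsive transcription factor, at 252, 229 and 234 against 240.4, 212 and 215 (-0.10 ± 0.10). Of 21 ERK feedback and output genes 6 were higher and 1 lower without overlap, and the median was 0.28. The tumor medians were 0.34, 0.09 and 0.18, and the count of higher genes was 11 without p53-/- tumor 3 and that of lower genes 4 without p53R172H/- tumor 1. Probe sets of the same gene disagreed in sign for Spred1, whose difference was -0.97 with its probe set of highest variance. Under that rule 4 of 18 genes of the list were higher and 2 lower without overlap.

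Ligands of the EGF receptor, which feed the same cascade, differed among themselves. Tgfa was at 717, 847 and 823 against 1348, 919 and 1102 (0.48 ± 0.14) and Ereg (epiregulin), in the opposite direction, at 1153, 1348 and 1688 against 866, 917 and 972 (-0.59 ± 0.15), both without overlap. Hbegf was high in p53R172H/- tumor 1 alone, at 778, 1039 and 858 against 2325, 865 and 1134 (0.57 ± 0.31). Epgn was also highest in that tumor, at 874, 773 and 1808 against 2732, 1265 and 1267 (0.61 ± 0.38), but p53-/- tumor 3 was above the other p53R172H/- tumors. Among immediate-early genes, which respond within minutes to growth factors, Fos was at 353, 545 and 682 against 998, 1021 and 889 (0.93 ± 0.24) and the phosphatase Dusp1 at 1984, 2559 and 3189 against 3642, 4512 and 3327 (0.59 ± 0.18). Both lay above all p53-/- tumors, whereas Junb, at 1289, 1551 and 1406 against 2021, 1526 and 2103 (0.40 ± 0.13), overlapped through p53R172H/- tumor 2. Of 21 immediate-early genes 3 were higher and 1 lower without overlap. At an unadjusted p of 0.05, 6 were higher and 1 lower. The count of higher genes without overlap was 5 without p53-/- tumor 1, 7 without p53-/- tumor 3 and 6 without p53R172H/- tumor 1 or 2, and that of lower genes was 3 without p53-/- tumor 1 or p53R172H/- tumor 3. The median of 0.15 was 0.02 without p53-/- tumor 2, 0.08 without p53R172H/- tumor 2 and 0.08 without p53R172H/- tumor 3.

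The circadian clock is a loop in which Clock and Arntl (Bmal1) switch on Per and Cry genes through E-boxes, CACGTG, and Per and Cry proteins shut them off again. Dbp, Tef and Hlf are output factors of the same loop. Dbp had the largest difference among them, at 1282, 1379 and 1951 against 411, 469 and 894 (-1.44 ± 0.33, 2.71-fold lower). Per2 was at 248, 305 and 252 against 169, 173 and 159 (-0.68 ± 0.11), Cry2 at 273, 444 and 319.7 against 200.4, 200.1 and 223 (-0.71 ± 0.19) and Per1 at 281, 322 and 435 against 168, 272 and 246 (-0.61 ± 0.23). Tef was at 1246, 1155 and 1283 against 829, 701 and 938 (-0.59 ± 0.15). In these 5 genes every p53R172H/- tumor was below every p53-/- tumor. Arntl, whose level runs opposite to Per and Dbp over the day in normal tissue, was higher at 127, 134 and 106 against 149, 205 and 153 (0.45 ± 0.15), as was the repressor Bhlhe40 at 1042, 1203 and 1254 against 1655, 1531 and 1399.5 (0.39 ± 0.11). Nr1d1 (Rev-erb alpha) and Cry1 overlapped, at 399, 375 and 481 against 284, 407 and 425 (-0.18 ± 0.19) and 218, 339 and 225 against 240.1, 211 and 224 (-0.18 ± 0.26). Of 20 clock genes 5 were lower and 2 higher without overlap, that is 25% and 10% beside 13.8% and 9.11% of all genes, and the median was -0.19. The count of lower genes was 8 without p53-/- tumor 2 and 9 without p53R172H/- tumor 3, and that of higher genes 4 without p53-/- tumor 2. The hour at which each tumor was taken is not stated in the labels, so hour and genotype cannot be told apart.

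The clock genes tested had 25 RefSeq promoters (17 genes matched), of which 24.0% held CACGTG against 7.15% of all promoters. The share counts promoters and not genes, and both promoters of Tef held the motif. It was absent from the promoters of Dbp and Cry2, which also separated the genotypes. A promoter of Tef (GRCm38.p6, chr15:81802423-81802722, plus strand) is printed to show one such E-box, in capitals with the CCAAT boxes on the opposite strand (ATTGG), and with the start site at base 251.
Tef: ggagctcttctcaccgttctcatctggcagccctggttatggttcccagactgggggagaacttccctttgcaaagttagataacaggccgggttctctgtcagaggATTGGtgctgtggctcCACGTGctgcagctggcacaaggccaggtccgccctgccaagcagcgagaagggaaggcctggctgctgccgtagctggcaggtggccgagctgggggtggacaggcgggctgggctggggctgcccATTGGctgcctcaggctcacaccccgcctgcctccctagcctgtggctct

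**Figure D3:**
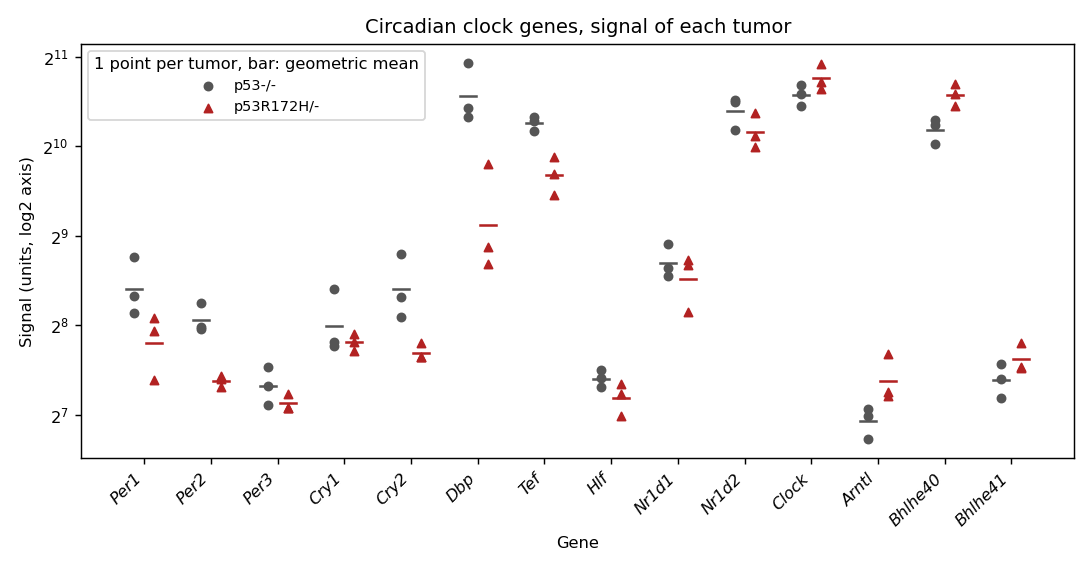
Signal (y axis, signal units on a log2 axis) of 14 clock genes (x axis) in each tumor; circles are p53-/- and triangles p53R172H/- tumors, and bars are geometric means. Dbp, Per1, Per2, Cry2 and Tef have all triangles below all circles, and Arntl and Bhlhe40 have them above.

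Fibrillar collagens form the ropes of the stroma, fibril-associated collagens decorate them, and type VI collagen makes beaded filaments beside them. The list that joins these 3 classes had the lowest median of all lists, -0.62. Of 16 tested genes 15 had a lower mean in the p53R172H/- tumors, and 10 (62.5%) were lower without overlap beside 13.8% of all genes. At an unadjusted p of 0.05, 12 were lower and 0 higher. Of the 10 fibrillar chains alone, a split made after the values were seen, 10 had a lower mean and 6 were lower without overlap, with a median of -0.56. The tumor medians of the whole list were alike at -0.60, -0.75 and -0.61, and leaving out any 1 tumor kept the list's median between -0.711 and -0.595. Col1a1 and Col1a2, the 2 chains of type I collagen, were at 3854, 3064 and 4380.1 against 2247, 1587 and 2330.3 (-0.88 ± 0.22) and 6289, 4815 and 6829.5 against 3302, 3347 and 3916 (-0.75 ± 0.18). The 3 chains of type VI collagen, Col6a1, Col6a2 and Col6a3, were at 1501, 843 and 1670.4 against 672, 702 and 803, 2456, 1590.1 and 2426 against 1300.4, 1085 and 1073 and 2548, 1604 and 2518 against 1463, 1047 and 1363, with differences of -0.83 ± 0.24, -0.88 ± 0.19 and -0.77 ± 0.23. In these 5 genes the lowest p53-/- value, always that of tumor 2, was still above every p53R172H/- tumor. Col5a1, which nucleates type I fibrils, was at 1205, 800.1 and 1111 against 708, 552 and 610.4 (-0.72 ± 0.22), and Col16a1, which associates with fibrils, at 584, 472 and 585 against 307, 322 and 352 (-0.74 ± 0.12). Col3a1, the brightest of the list, overlapped at 9202, 7079 and 10724 against 5820.1, 6787 and 7795 (-0.39 ± 0.16), and Col12a1 was the exception with a higher mean, at 347, 194 and 551 against 513, 496 and 707 (0.76 ± 0.35). For Col12a1 another probe set of the gene pointed the other way.

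Fibroblast markers as a list were nearly level between the genotypes. Of 24 fibroblast and myofibroblast markers, 2 were lower and 0 higher without overlap, and the median was 0.02. The summed level differed between tumors, with a mean log2 signal of 8.34 to 9.02 in the p53-/- tumors and of 8.14, 9.09 and 9.08 in the p53R172H/- tumors. In p53R172H/- tumors 2 and 3 the mean of fibroblast markers was above the p53-/- range and that of collagens below it. p53R172H/- tumor 1 was low in both. The marker list includes contractile genes such as Acta2 and Tagln and shares Des with the muscle list. p53R172H/- tumors 2 and 3 also had the highest means of skeletal muscle genes. The part of fibroblast content in the collagen difference was not tested. Without tumor 1 the markers' median was 0.24 with 8 higher without overlap, and the collagens' median was -0.61. Without p53-/- tumor 2 the markers' median was -0.15, with 5 lower, and without p53R172H/- tumor 3 it was -0.10. Pdgfrb, the PDGF receptor of fibroblasts and pericytes, was lower at 616, 509 and 794 against 304, 423 and 483 (-0.67 ± 0.20), and Cnn1, a smooth muscle and myofibroblast protein, at 139, 199 and 130.3 against 116, 95.5 and 125 (-0.46 ± 0.19). The stem and stromal marker Cd34 pointed up at 224, 245 and 341 against 277, 343 and 486 (0.44 ± 0.21) and overlapped.

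Other matrix genes were mixed. Of 27 glycoprotein and proteoglycan genes 8 were lower and 0 higher without overlap. Their medians by tumor were -0.58, -0.04 and 0.07, so tumor 1 carried the list's median of -0.16, which was -0.03 without it, -0.36 without p53-/- tumor 2, -0.10 without p53-/- tumor 3, -0.25 without p53R172H/- tumor 2 and -0.32 without p53R172H/- tumor 3. Without p53R172H/- tumor 1, 4 genes were higher without overlap. Sparc, a collagen-binding matrix protein, was at 7008, 5536 and 7568 against 5461, 4903 and 4752 (-0.40 ± 0.12). Postn (periostin), also a matrix protein, was at 6455, 4189.8 and 6198 against 3697, 3348 and 3507 (-0.65 ± 0.21). Thbs2, a thrombospondin that shapes collagen fibrils, was at 404, 325 and 579.9 against 211, 205 and 269 (-0.90 ± 0.29). These 3 genes were low in all p53R172H/- tumors, tumors 2 and 3 included. Sfrp2, a secreted Wnt modulator made by fibroblasts, was at least 2-fold below the p53-/- mean in every p53R172H/- tumor, at 484, 315 and 597 against 161, 198 and 185 (-1.32 ± 0.27). Basement membrane and other collagens were lower without overlap in 2 of 12 genes, Col7a1 of the anchoring fibrils at 1058, 685 and 955 against 611, 378 and 463 (-0.90 ± 0.27) and Col18a1 at 1899.6, 1589 and 1864 against 1468, 1077 and 1079 (-0.57 ± 0.13). That count was 4 when either p53-/- tumor 1 or 2, or p53R172H/- tumor 1, was left out. Of 25 matrix protease genes 5 were higher and 2 lower without overlap. The collagenase Mmp13 was at 276, 52.3 and 254 against 299, 618 and 518 (1.56 ± 0.57), with p53-/- tumor 2 far below the other tumors. The value of p53-/- tumor 2 was under 52.58 units, the level to which lower values were raised. Adam8, a protease of migrating cells, was at 215, 159 and 192 against 445, 306 and 343 (0.94 ± 0.22). Protease counts were 9 higher without p53R172H/- tumor 1 and 8 lower without p53-/- tumor 2.

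**Figure D4:**
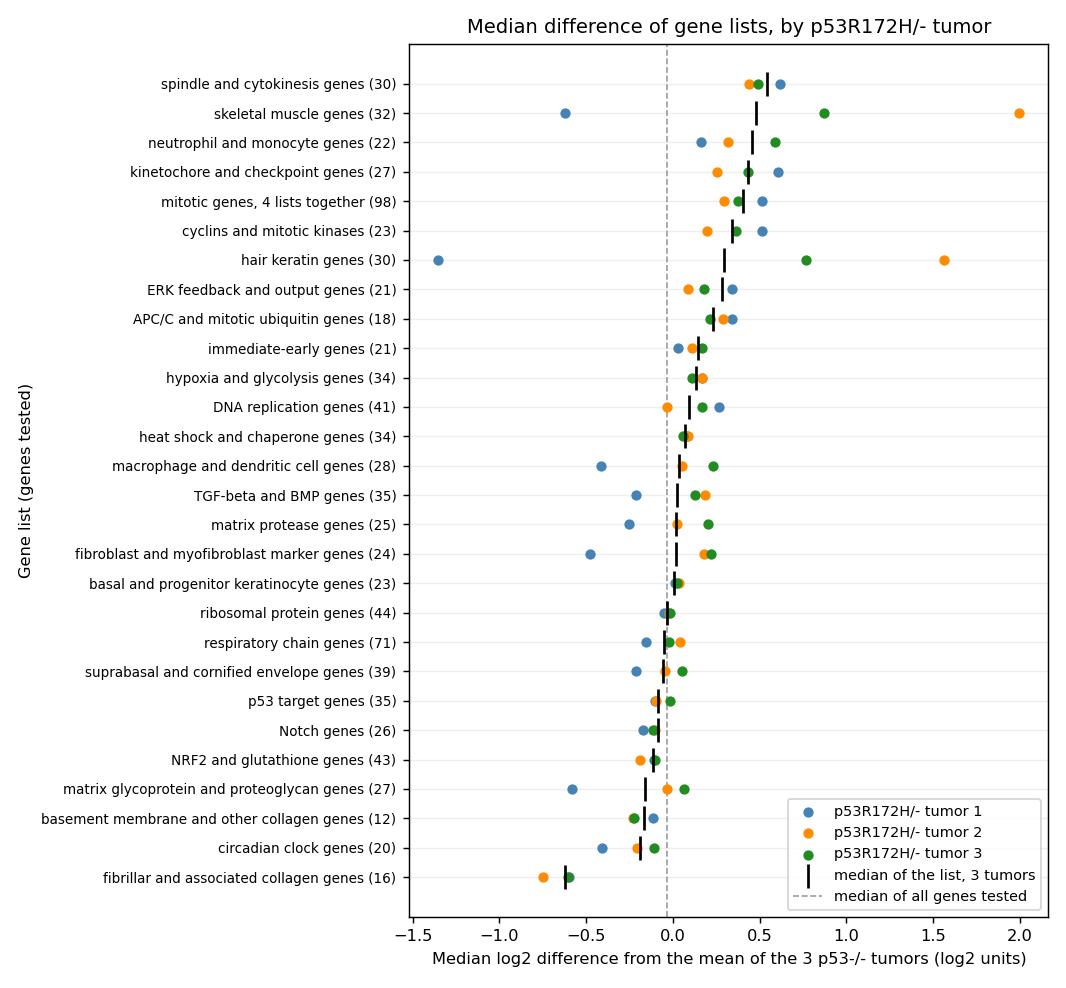
Median log2 difference from the mean of the 3 p53-/- tumors (x axis, log2 units) for the main gene lists (y axis, number of genes tested in brackets), for all 3 p53R172H/- tumors (black bar) and for each of them (coloured points); the dashed line is the median of all genes. Fibrillar and associated collagens lie between -0.75 and -0.60 and mitotic genes between 0.30 and 0.52, whereas skeletal muscle genes spread from -0.62 to 2.00.

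Genes that wild-type p53 is known to activate were examined because neither genotype has a wild-type allele. Of 35 tested, 10 were lower and 2 higher without overlap, that is 28.6% and 5.71% beside 13.8% and 9.11% of all genes, with a median of -0.09. Dcxr, a sugar reductase, was at 299, 435 and 357 against 183, 202 and 216 (-0.85 ± 0.16), and Zmat3, an RNA-binding protein, at 876, 1092 and 1039.8 against 633, 756 and 744 (-0.49 ± 0.13). Plk3, a stress kinase, was at 801, 759 and 1054 against 581, 605 and 665 (-0.48 ± 0.14), and Ccng1 (cyclin G1) at 1029.5, 1467 and 1031 against 703, 942 and 916 (-0.45 ± 0.18). These 4 lay below all p53-/- tumors in each p53R172H/- tumor. The best-known targets did not separate, since Cdkn1a was at 2249, 2727 and 2855 against 2354, 2151 and 2256 (-0.21 ± 0.10) and Mdm2 at 618, 583 and 599.8 against 660.0, 541 and 637 (0.02 ± 0.12), both with overlap. The list's median was -0.05 without p53-/- tumor 1, -0.03 without p53R172H/- tumor 1 and -0.15 without p53R172H/- tumor 3. The count of higher genes was 5 without p53-/- tumor 1 or 3, 4 without p53R172H/- tumor 1 and 6 without p53R172H/- tumor 2. By limma, 8 of the 35 genes were lower and 0 higher at an unadjusted p of 0.05. These counts were 3 and 2 of 33 genes when the probe sets of a gene were averaged. Under that rule 7 genes were lower and 4 higher without overlap, beside 14.3% and 8.91% of all genes. The sign differed on another probe set of the gene for Cdkn1a.

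Within the epithelium, basal and progenitor genes as a list were level, with a median of 0.01 and 3 of 23 higher and 1 lower without overlap. The first count was 5 without p53-/- tumor 2 or p53R172H/- tumor 2. Bnc1 (basonuclin 1), a zinc finger protein of proliferating keratinocytes, had the smallest p of all genes, at 329, 306 and 352 against 706, 637 and 543 (0.93 ± 0.14). Ovol1 and Grhl3, which promote epithelial differentiation, were at 1438, 1139 and 1447 against 1802, 1497 and 1792 (0.34 ± 0.12) and 1565, 2032 and 1584 against 2087, 2152 and 2061 (0.29 ± 0.13). All 3 were higher in every p53R172H/- tumor, whereas the basal keratin Krt14 differed by 0.04 ± 0.06. In the cornified envelope, the protein and lipid shell of dying surface keratinocytes, 6 of 39 genes were lower and 3 higher without overlap, near the background, and the median was -0.06. The lipoxygenases Aloxe3 and Alox12b, which build the lipid barrier, were at 947, 1040.2 and 1007 against 569, 742 and 841 (-0.49 ± 0.14) and 2932, 3059 and 3252 against 2139, 2159 and 2585 (-0.43 ± 0.12), and the transglutaminase Tgm5 at 1070.3, 1101 and 1142 against 797, 836 and 818 (-0.43 ± 0.10). In contrast the small proline-rich proteins Sprr1a and Sprr2d were higher, at 13377, 13186 and 12632 against 19339, 14154 and 16692 (0.35 ± 0.13) and 5654, 5746 and 5272 against 9446, 8312 and 8239 (0.64 ± 0.22). Loricrin (Lor), the main envelope protein, and Krt10 were near the top of the scale in all tumors, at 16992, 17151 and 17234 against 13816, 16453 and 17293 and 23579, 21889 and 22624 against 20386, 22421 and 22588. The count of lower genes was 13 without p53R172H/- tumor 3, and that of higher genes 8 without p53-/- tumor 3, 5 without p53R172H/- tumor 1 and 6 without p53R172H/- tumor 2.

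Chemokines that attract neutrophils through the receptor Cxcr2 were uneven among the tumors. Cxcl2 was at 266, 301 and 176 against 799.5, 449 and 1102 (1.60 ± 0.44) and Cxcl1 at 366, 537 and 218 against 1485, 584 and 769.9 (1.32 ± 0.48), both without overlap. Cxcl3, Cxcl5 and Ppbp overlapped because p53R172H/- tumor 2 was below p53-/- tumor 2, at 1055, 1457 and 329.8 against 4226, 1287 and 2575, 494, 1431 and 143 against 3742, 834 and 2419.9 and 2399, 4275 and 496 against 12499, 3357 and 6237. The cytokine Il1a, which induces such chemokines, was at 179.9, 131 and 251 against 704, 339.8 and 316 (1.22 ± 0.41), and its relative Il1b at 533, 385 and 405 against 752, 516 and 1309 (0.87 ± 0.36) with overlap. The receptor Cxcr2 itself, carried by neutrophils, was at 137, 192 and 209.6 against 155, 139 and 124 (-0.35 ± 0.16), and the granulocyte receptor Csf3r at 404, 356 and 347 against 422, 332 and 478 (0.14 ± 0.14). Of 22 neutrophil and monocyte genes 2 were higher and 0 lower without overlap, with a median of 0.46. These shares of 9.09% and 0% were no larger than the 9.11% and 13.8% of all genes. The count of higher genes was 7 without p53-/- tumor 1, 6 without p53-/- tumor 2, 8 without p53R172H/- tumor 1 and 9 without p53R172H/- tumor 2. Of 28 macrophage and dendritic cell genes 0 were higher and 3 lower without overlap. The lower share of 10.7% was also below that of all genes. The lower genes included the antigen-presenting molecule H2-Eb1, at 1156, 956 and 919.9 against 535, 729 and 872 (-0.53 ± 0.21). Irf8, a transcription factor of dendritic cells and macrophages, was at 216, 252 and 374 against 77.0, 115 and 126 (-1.40 ± 0.43), more than 2-fold below the p53-/- mean in each p53R172H/- tumor. Macrophage markers were themselves uneven, with a mean log2 signal of 8.41, 9.09 and 9.28 in p53R172H/- tumors 1, 2 and 3 beside 8.55 to 8.94 in the p53-/- tumors. Without p53R172H/- tumor 1, 11 of them were higher without overlap, and without p53-/- tumor 3 or p53R172H/- tumor 3, 5 were lower. Another probe set of the gene had a difference of the opposite sign for Irf8.

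Hypoxia and heat shock genes lay mostly on the higher side, with small differences. Hif1a, the oxygen-sensitive transcription factor, was at 2878, 2430.1 and 2684 against 4591, 3889 and 3588 (0.59 ± 0.13), and its targets Vegfa, an angiogenic factor, and Pgk1, a glycolytic enzyme, were at 269, 336 and 270.2 against 406, 396 and 415 (0.48 ± 0.15) and 6908, 6808 and 6875 against 8983, 7691 and 8165 (0.27 ± 0.11). Of 34 hypoxia and glycolysis genes 8 were higher and 1 lower without overlap, or 23.5% and 2.94%, 26 had a higher mean, and the median was 0.13. Without p53-/- tumor 3 the counts were 13 and 4. Hsp90aa1, the inducible Hsp90 chaperone, was at 3675, 3399 and 3343 against 4776, 4256 and 4272 (0.35 ± 0.07), and the co-chaperone Dnaja1 at 1062, 1094 and 1081 against 1301, 1248 and 1362 (0.27 ± 0.10). Of 34 heat shock and chaperone genes 28 had a higher mean, and 8 were higher and 0 lower without overlap, with a median of 0.07, which was 0.13 without p53-/- tumor 1. Antioxidant genes went both ways. Gsr (glutathione reductase) was higher at 202, 151 and 201 against 349, 234 and 323 (0.70 ± 0.26), and the glutathione transferase Gsta2 was lower at 486, 1273 and 697 against 315, 338 and 466 (-1.04 ± 0.32). In Gsta2 p53-/- tumor 2 was well above the other tumors. Of 43 NRF2 and glutathione genes 3 were higher and 5 lower without overlap, and the count of lower genes was 11 without p53-/- tumor 1 and 12, 9 and 12 without p53R172H/- tumor 1, 2 or 3 in turn. That of higher genes was 5 without p53R172H/- tumor 3. Probe sets of the same gene disagreed in sign for Hsp90aa1.

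Other signalling lists were those of TGF-beta and Notch. Of 35 TGF-beta and BMP genes 6 were higher and 0 lower without overlap. They included Tgif1, a corepressor of Smad proteins, at 244, 305 and 305 against 755, 453 and 469 (0.94 ± 0.25), the inhibitory Smad7 at 153, 243 and 234 against 319, 302 and 267 (0.52 ± 0.18) and Id1, a BMP target, at 1198, 1445 and 1541 against 3273, 1759 and 1814 (0.66 ± 0.26). Tgif1 and Id1 were highest in p53R172H/- tumor 1, although the list's median in that tumor was -0.21. Without tumor 1, 13 of the 35 genes were higher without overlap, and without p53R172H/- tumor 2, 3 were lower. Of 26 Notch genes 6 were lower and 0 higher without overlap, with the receptor Notch1 at 822, 952 and 776 against 522, 685 and 704 (-0.42 ± 0.14) and Rfng, a glycosyltransferase that tunes Notch receptors, at 446, 494 and 451 against 333, 355 and 353 (-0.42 ± 0.13). The lower Notch share was 23.1% beside 13.8% of all genes. With arrays scaled to one median 3 of 26 Notch genes were lower without overlap, beside 11.3% of all genes. The stricter filter left 13 Notch genes, of which 3 were lower, beside 12.5% of all genes. On the higher side 3 Notch genes did not overlap without p53R172H/- tumor 2.

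Among the genes that no list holds, several separated the genotypes widely. Dynap, a membrane protein, had the largest difference without overlap, at 594, 1095 and 279 against 8039, 2035 and 2778 (2.66 ± 0.77), with p53R172H/- tumor 1 far above the others. Cyp1b1, a cytochrome P450 of steroid and hydrocarbon metabolism, was at 162, 53.7 and 105 against 337, 204 and 261 (1.44 ± 0.40), and Plet1, a surface marker of placental and epithelial progenitors, at 626, 343 and 616 against 1548, 1039 and 1138 (1.26 ± 0.40). Together with Dusp6 these were the 4 genes at least 2-fold above the p53-/- mean in each p53R172H/- tumor. For Cyp1b1 that mean was pulled down by p53-/- tumor 2, at 53.7. This is close to 52.58 units, the level to which lower values were raised. On the lower side 5 genes met the same rule, namely Sfrp2, Irf8, Erdr1, Clec2g and Gm1673. Erdr1 was at 3638, 8094 and 3814 against 2138, 1253 and 1158 (-1.73 ± 0.33) and Clec2g, a C-type lectin-related gene, at 408, 414 and 264 against 80.3, 90.2 and 145 (-1.80 ± 0.46). Gm1673 was at 209, 788 and 293 against 161, 126 and 161 (-1.29 ± 0.42), where p53-/- tumor 2 stood far above the other tumors. Slc6a14, an amino acid transporter, was highest in p53R172H/- tumor 1 at 642, 634 and 594 against 3522, 818 and 1605 (1.42 ± 0.59), and Uox, urate oxidase, was at 533, 352 and 480.2 against 1022, 818 and 1117 (1.12 ± 0.30). Mndal, an interferon-inducible DNA-binding family member, was at 211, 131 and 140.4 against 363, 331 and 304 (1.08 ± 0.19) and Cited4, a transcriptional co-activator, at 952, 1157 and 1044 against 203, 567 and 438 (-1.50 ± 0.39). Bckdhb, a subunit of the branched-chain keto acid dehydrogenase, was at 1457, 1115 and 1694 against 714, 497 and 464 (-1.35 ± 0.33). The 3 p53R172H/- tumors were close together for Mndal and Uox and spread widely for Slc6a14 and Cited4. For Cyp1b1 and Plet1 another probe set of the gene pointed the other way.

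Some smaller differences were also even from tumor to tumor, in genes picked for a small p, which favors even values. On the higher side Far1, which makes fatty alcohols for ether lipids, was at 422, 403 and 458 against 592, 646 and 633 (0.54 ± 0.10) and Nup160, a nuclear pore subunit, at 319, 293 and 372 against 553, 463 and 482 (0.61 ± 0.11). Uap1, which makes the sugar donor UDP-GlcNAc, was at 373, 375 and 443 against 606, 669.6 and 585 (0.65 ± 0.12), and Gda, guanine deaminase, at 467, 664 and 499 against 913, 902 and 960.3 (0.78 ± 0.16). Bcl10, an adaptor of NF-kappa B signalling, was at 628, 582 and 641 against 1101, 953 and 861 (0.65 ± 0.13), and Senp2, a SUMO protease, at 313, 312 and 363 against 525, 522 and 446 (0.59 ± 0.12). On the lower side Klc3, a kinesin light chain, was at 1928, 2047 and 1954 against 1321, 1469 and 1359 (-0.52 ± 0.09), and Lrrc20 at 932, 956 and 949.6 against 665, 653 and 725 (-0.48 ± 0.08). Lamtor4, a subunit of the lysosomal Ragulator complex of mTORC1 signalling, was at 909, 950.2 and 957 against 688, 710.1 and 692 (-0.43 ± 0.08), and the ubiquitin-conjugating enzyme Cdc34 at 1501, 1625 and 1468 against 1141, 1179.5 and 1189.6 (-0.39 ± 0.08). Slc48a1, a heme transporter, was at 681, 809 and 767 against 476, 486 and 514 (-0.61 ± 0.11). Kdm5c, a histone demethylase, was at 310.3, 419.9 and 379.8 against 217, 255 and 217 (-0.68 ± 0.14), and Efna3, an ephrin ligand, at 1899, 2196 and 2183 against 955, 1479.7 and 1397 (-0.73 ± 0.15). Each of these genes separated all 6 tumors by genotype, with differences no larger than 0.78 in size. The sign differed on another probe set of the gene for Uap1, Bcl10 and Kdm5c.

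The p53R172H/+ tumors were compared with the same p53-/- tumors, so both comparisons share their controls and a likeness between them is no independent evidence. Their values are given side by side. Bnc1 was at 694, 635 and 522 in the p53R172H/+ tumors, a difference of 0.90 ± 0.14 from p53-/-, and Dusp6 at 1213, 848 and 434 (1.66 ± 0.32). Per2 was at 161, 162 and 174 (-0.69 ± 0.11). These 3 genes had p53R172H/+ levels on the same side of p53-/- as the p53R172H/- tumors, with Dusp6 lowest in p53R172H/+ tumor 3. Ccnb2 was at 615, 457 and 566 (0.50 ± 0.15), between the levels of the other genotypes in 2 of 3 tumors. The median difference from p53-/- over the 98 mitotic genes was 0.17 for p53R172H/+ and 0.41 for p53R172H/- tumors. For the 16 fibrillar and associated collagens these medians were -0.06 and -0.62. Col1a1 was at 3549, 4358 and 2601 (-0.12 ± 0.22) and Mki67 at 900.1, 778 and 859.7 (0.03 ± 0.15) in the p53R172H/+ tumors. The difference between p53R172H/- and p53R172H/+ tumors was not tested here.

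How far a single tumor set a value varied with the gene. Against the p53-/- mean, 94 genes were at least 2-fold higher and 249 at least 2-fold lower in p53R172H/- tumor 1. In tumor 2 these numbers were 202 and 43, and in tumor 3 they were 130 and 21. Only 4 and 5 genes were shared by all 3 tumors, those named above. Counting genes in which 1 of the 6 tumors lay at least 1 log2 unit beyond all others, p53R172H/- tumor 2 was the highest for 63 genes, p53-/- tumor 2 for 48 and p53R172H/- tumor 1 for 18. p53R172H/- tumor 1 was the lowest for 69 genes and p53-/- tumor 3 for 14. Among the genes with the widest such gaps, Alas2, the heme synthesis enzyme of red cell precursors, was at 43.3, 102 and 91.8 against 72.2, 2516 and 163, and Wdpcp, a planar polarity gene, at 76.9, 102 and 88.9 against 97.8, 2047 and 166. Rsad2, an antiviral interferon-induced gene, was at 121, 110.3 and 81.0 against 98.8, 723 and 125. Tumor 2 of the p53R172H/- group alone was high in these 3. At the low end Chil4, a chitinase-like protein, was at 2972, 1310.2 and 1154 against 99.2, 4693 and 4973, and the fast skeletal myosin Myh1 at 666, 731 and 1444 against 90.1, 5227 and 3456. p53R172H/- tumor 1 alone was low in both.

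**Figure D5:**
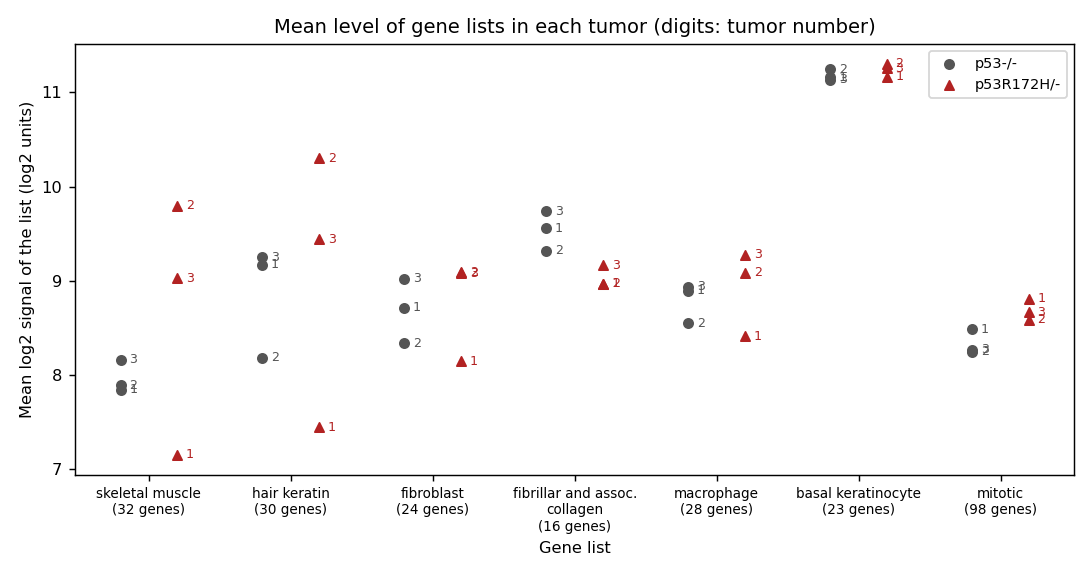
Mean log2 signal (y axis) of 7 gene lists (x axis) in each p53-/- (circles) and p53R172H/- tumor (triangles), with the tumor number beside each point. Skeletal muscle lists range from 7.15 to 9.80 and hair keratins from 7.44 to 10.30 within the p53R172H/- tumors, whereas mitotic genes lie between 8.59 and 8.81 there and between 8.25 and 8.48 in the p53-/- tumors.

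Muscle and hair genes illustrate this. Of 32 skeletal muscle genes 1 was higher without overlap, Casq1, the calcium store protein of the muscle reticulum, at 178, 166 and 151 against 192, 316 and 223 (0.54 ± 0.17). The list's median was 0.48, but it was -0.62 in p53R172H/- tumor 1 and 2.00 and 0.87 in tumors 2 and 3. The median was 1.49 without tumor 1, 0.14 without tumor 2 and 0.74 without p53-/- tumor 3, and without p53R172H/- tumor 1 19 of the genes were higher without overlap and 3 lower, the latter also without p53-/- tumor 1 or 3. Of 30 hair keratin genes 0 were higher and 1 lower without overlap, and the median of 0.30 became 1.21 without tumor 1 (20 genes higher without overlap), -0.43 without tumor 2 (3 genes lower) and 0.06 without tumor 3. Leaving out p53-/- tumors 1, 2 or 3 gave hair medians of 0.45, -0.07 and 0.50. Muscle and hair medians were lowest in p53R172H/- tumor 1 and highest in tumor 2. Mitotic and collagen medians ran in the reverse order over a narrower range, from 0.52 in tumor 1 to 0.30 in tumor 2 and from -0.60 in tumor 1 to -0.75 in tumor 2. The part that muscle, hair or stromal content has in the other lists was not tested.

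Some genes have several probe sets. These read the same RNA of the same tumors, so they check the probe and not the genotype difference. Over all genes tested, 66.1% of the other bright probe sets of a gene had the same sign of difference as the one used. Of genes at least 1.5-fold different without overlap, 44 of 54 other probe sets (81.5%) on the higher side and 63 of 76 (82.9%) on the lower side did. The other probe sets also separated the tumors in the same direction in 59.3% and 34.2% of cases, beside 17.5% over all genes. Since these genes were picked for a wide separation, larger shares than over all genes are partly built in. The ratio of 3′ to 5′ probe signal of Actb, which rises when RNA is degraded, was 1.67, 1.69 and 1.502 in the p53-/- tumors and 1.31, 1.499 and 1.56 in the p53R172H/- tumors, with overlap. That of Gapdh was 0.929 to 1.03 over the 6 arrays. The part of RNA quality in the differences was not tested.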

How the data were processed

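Total RNA of each tumor was labelled with biotin and hybridised to an Affymetrix array, per the labels' protocols. The authors deposited one table of linear intensities, with a value for every probe set on every array. MAS5 produced them, per the submitters' processing notes, and its version and scaling were not stated. Intensities were raised to at least 52.58 units (the 20th percentile), log2 was taken, and no further normalization was done. A gene was represented by its probe set of highest mean, from 34945 probe sets with 1 symbol, and kept if that mean reached 113.08 units (the median of all probe sets). All 9 arrays entered a single fit of genotype means with limma 3.58.1 in R 4.3.3 (lmFit, eBayes with a variance trend), two-sided, with Benjamini-Hochberg adjustment at 0.05. The fit was tested on simulated data.

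Named genes were in each direction the 25 with the smallest p, the 10 with the largest difference without overlap, the 6 list members of smallest p, 9 set genes and the 5 widest single-tumor gaps per direction. Of these the more informative are printed, and further list members were chosen after their values were seen. Members and lists were chosen with earlier results of these data known, so lists are described by counts and medians and not tested. Promoters came from RefSeq tables. The targeted gene and some others are left out, and the genotype labels were not checked against it.

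Alternatives were other normalizations, floors, filters, probe set rules and variance models, fewer arrays, and the tumor number as a block.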

Additional observations from a re-analysis of the deposited data

How the results depend on the processing

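With limma no gene passed an adjusted p of 0.05 under any alternative that kept at least 2 tumors of each genotype, where the smallest adjusted p ranged from 0.127 to 0.299. The exception was the setting without p53R172H/- tumors 2 and 3, which leaves 1 tumor assumed to vary like the others and called 3 genes, the envelope genes Lce1b and Lce1c and Rnf227 (smallest adjusted p 0.0434). There 2832 genes were higher and 4670 lower without overlap, since 1 tumor is easily beyond 3. A filter at the 70th percentile, which tests 8205 genes, gave 713 lower genes at an unadjusted p of 0.05 and 1022 lower without overlap. Leaving out each array in turn gave 486 to 837 higher and 690 to 1245 lower genes at an unadjusted p of 0.05, 1108 to 1937 higher and 1681 to 2591 lower without overlap, and 0 past the adjusted threshold. With the tumor number as a block the counts were 764 and 1058 at an unadjusted p of 0.05 and 0 after adjustment (smallest adjusted p 0.127). The deviations of tumors with the same number correlated at -0.0957, -0.194 and 0.206 across genes. These values had no common sign, but so few of them cannot exclude a pairing. The main fit treated the tumors as unpaired. Of 148 named genes 139 kept their sign with each array left out. The others crossed 0 and ranged from -1.27 to 1.55 (Chil4), -0.30 to 0.019 (Cry1), -0.12 to 0.0095 (Foxm1), -0.21 to 0.24 (Krt13), -0.015 to 0.12 (Krt5), -0.032 to 0.11 (Mdm2), -0.67 to 2.26 (Myh1), -0.29 to 0.0013 (Nr1d1) and -0.080 to 0.17 (Spry1). Signs also turned without p53R172H/- tumors 2 and 3 for Alas2 (-0.13), Etv4 (0.014), Foxm1 (0.016), Krt13 (-0.21), Myh1 (-3.30), Rsad2 (-0.056) and Spry1 (-0.30). With the mean of all probe sets they turned for Cdkn1a (0.16) and Krt13 (-0.052), and with the probe set of highest variance for Cdkn1a (0.52), Lor (0.0070) and Spred1 (-0.97). The cause was not tested. The number of arrays and, for dim genes, the signal above background limit the precision.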
